A study of Homo sapiens with 6 samples.

Results

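The histone genes of KHOS and U-2OS cells, which are 2 lines from human osteosarcoma, were followed through transfection and knockdown of CDK11, a cyclin-dependent kinase that acts in transcription and pre-mRNA splicing. Members were all probe sets whose platform gene symbol begins with HIST1H, HIST2H, HIST3H, H1-, H2AC, H2BC, H3C or H4C. This rule, which uses no measured value, gave 69 of the 21357 genes named on the array, measured by 78 of its 54675 probe sets. Of the 78, 58 carried 1 gene symbol and 20 carried several, so that 19 of the 69 genes were measured through shared probe sets alone. KHOS was derived from an osteosarcoma line by a murine sarcoma virus, and each line is a single established line. Each line was measured untransfected, with nonspecific siRNA at 40 nM and with CDK11 siRNA at 40 nM, transfected for 48 h according to the methods. There was 1 Affymetrix U133 Plus 2.0 array for each of the 6 conditions, made from pooled RNA of 3 flasks, and the deposited values are log2 signals.

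Nucleosomes wrap DNA around pairs of the core histones H2A, H2B, H3 and H4, and linker histone H1 binds the DNA between them. Most of these genes lie in clusters as many near-identical copies and are transcribed during DNA replication, under NPAT and FLASH (CASP8AP2). Their mRNAs are unusual in ending in a stem-loop, bound by SLBP and cut with the help of the U7 particle (LSM10, LSM11), in place of a poly(A) tail, although some copies also give polyadenylated transcripts. CDK11 has been tied to histone transcription through FLASH. How the array targets were primed is not given in the sources used here, so the share of tailless histone mRNA in these signals is unknown.

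The promoters of the genes on which the results below turn are printed first, as RefSeq sequences of GRCh38.p14 that reach from 250 bases before to 50 after the start of the gene. Capitals mark matches, on either strand, to the letters of the octamer (ATTTGCAT), the H1 box (AAACACAAA) or the TATA box (TATAAA). They also mark the CCAAT box, whose name gives its letters. H2AC25, the H2A gene with the largest difference in signal between the lines, was at chr1:228457824-228458123 (minus strand). H2AC6, which differed most after transfection of nonspecific siRNA, was at chr6:26123922-26124221 (plus strand). H2AC18, which shares its probe sets with H2AC19, was at chr1:149842701-149843000 (minus strand). H2BC12, an H2B gene that was above the signal limit on every array, was at chr6:27146809-27147108 (minus strand), and the linker histone H1-10, outside the main clusters, was at chr3:129316237-129316536 (minus strand).
H2AC25: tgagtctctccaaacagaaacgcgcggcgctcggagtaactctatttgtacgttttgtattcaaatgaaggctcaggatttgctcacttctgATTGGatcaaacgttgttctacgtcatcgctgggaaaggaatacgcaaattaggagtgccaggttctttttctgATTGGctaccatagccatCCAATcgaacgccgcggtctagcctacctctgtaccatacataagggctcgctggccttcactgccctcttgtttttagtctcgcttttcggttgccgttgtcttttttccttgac
H2AC6: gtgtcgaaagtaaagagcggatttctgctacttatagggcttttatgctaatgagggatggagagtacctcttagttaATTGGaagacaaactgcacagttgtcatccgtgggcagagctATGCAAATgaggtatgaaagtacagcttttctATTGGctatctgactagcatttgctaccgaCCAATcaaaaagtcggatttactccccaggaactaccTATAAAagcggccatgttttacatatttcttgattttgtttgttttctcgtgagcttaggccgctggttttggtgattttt
H2AC18: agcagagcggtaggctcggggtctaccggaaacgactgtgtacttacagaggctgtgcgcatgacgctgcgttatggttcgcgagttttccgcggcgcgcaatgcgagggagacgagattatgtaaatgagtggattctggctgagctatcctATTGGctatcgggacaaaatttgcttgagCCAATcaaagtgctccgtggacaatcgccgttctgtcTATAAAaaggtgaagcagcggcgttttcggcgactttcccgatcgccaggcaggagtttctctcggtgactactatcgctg
H2BC12: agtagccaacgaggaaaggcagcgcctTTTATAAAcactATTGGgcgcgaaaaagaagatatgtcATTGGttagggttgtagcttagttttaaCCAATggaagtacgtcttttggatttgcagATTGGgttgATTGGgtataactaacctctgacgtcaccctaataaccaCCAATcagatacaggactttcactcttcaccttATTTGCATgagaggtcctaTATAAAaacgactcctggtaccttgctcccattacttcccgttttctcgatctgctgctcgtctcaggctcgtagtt
H1-10: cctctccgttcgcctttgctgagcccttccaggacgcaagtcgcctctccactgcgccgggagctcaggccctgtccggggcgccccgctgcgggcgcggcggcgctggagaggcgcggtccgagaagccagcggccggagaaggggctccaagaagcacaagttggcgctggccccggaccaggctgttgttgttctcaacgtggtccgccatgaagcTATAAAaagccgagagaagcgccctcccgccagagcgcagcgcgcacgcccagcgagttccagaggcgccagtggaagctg

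Of the 69 genes, 59 had a promoter of this kind. The octamer was found in 37.3% of these (22) against 1.802% of the 27305 promoters of all genes, the CCAAT box in 81.4% (48) against 35.7% and the TATA box in 62.7% (37) against 11.95%. The classes were not alike. The octamer, the site of the factor POU2F1, was present in 13 of 16 H2B and 8 of 13 H2A promoters but in 1 of 8 H3 promoters and in none of 13 H4 and 9 H1 promoters. The CCAAT box was in all 13 H2A, all 16 H2B and all 8 H3 promoters, and in 3 of 13 H4 promoters. The H1 box was found in 3 of the 9 H1 promoters and in no other class, and in 0.637% of all genes. In the promoters printed above, H2AC6 and H2BC12 held an octamer and H2AC25, H2AC18 and H1-10 did not, while H1-10 had a TATA box and no CCAAT box. In H2BC12, 2 of the 3 TATA box matches overlap as the same stretch read on both strands. Of the 300 bases of H2AC25, 271 are shared with the divergent promoter of H2BC26, and 255 of those of H2AC6 with that of H2BC4. H2AC18 and H2AC19 are the same in 299 bases, shifted by 1 base. Promoters of neighbouring and copied genes are thus not independent, and a match is a string of letters rather than a shown binding site.

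The target of the siRNA was lower on both knockdown arrays. Its probe set 212401_s_at, which is assigned to CDK11A and CDK11B, had log2 signals of 9.69, 9.92 and 7.64 on the untransfected, nonspecific siRNA and CDK11 siRNA arrays of KHOS, and of 8.97, 8.88 and 6.24 on those of U-2OS. On the linear scale, 20.6% of the nonspecific siRNA signal remained in KHOS and 15.95% in U-2OS. All 5 CDK11 probe sets were lowest with CDK11 siRNA in both lines. Of the osteoblast lineage markers, RUNX2, COL1A1, SPARC and, in KHOS, CDH11 passed the signal limit described next. ALPL, COL1A2, IBSP and SPP1 did not. CDH1, KRT5, KRT19, ESRP1 and the blood markers PTPRC, HBB and CD3E did not pass it either, whereas EPCAM did in KHOS.

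Probe sets with a signal above 100 (a log2 value of 6.64) on any of the 6 arrays were taken as measured. This held for 18 of the 78 histone probe sets (23.1%) and for 16397 (29.99%) of all probe sets. The 18 comprised 2 for H1, 5 for H2A, 8 for H2B and 3 for H4, and no probe set for H3 reached the limit. Of the 18, 14 lay above it on all 6 arrays and 7 are assigned to several genes. Of the same 18, 10 end in _x_at, the platform's mark for probes that can bind other transcripts, so that neighbouring copies may be read by the same probes. In these bulk samples fewer cells in S phase and less RNA per cell cannot be told apart, and where copies share probes, neither can the copies.

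**Figure D1:**
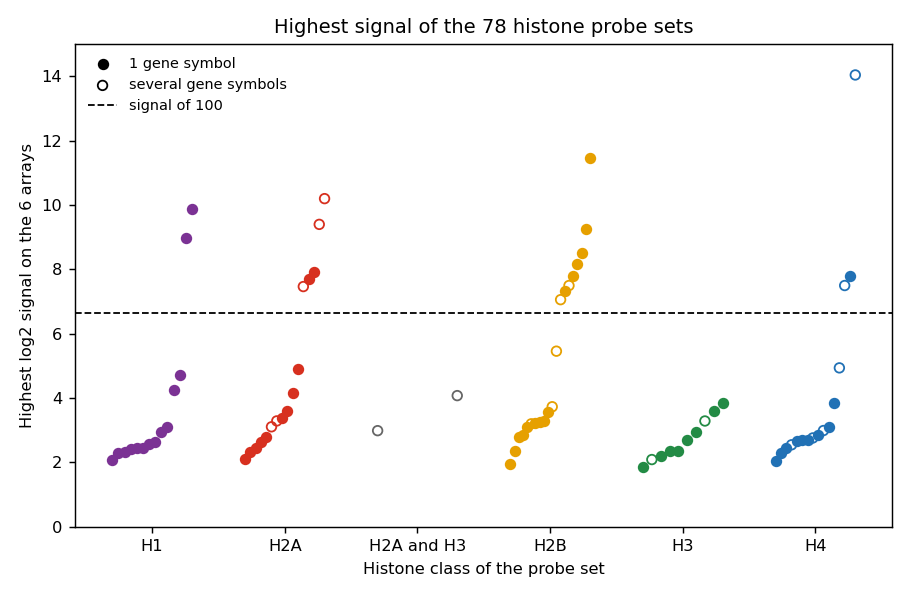
Highest log2 signal on the 6 arrays of each of the 78 histone probe sets, by histone class, with the points of a class ordered by signal, filled points for probe sets with 1 gene symbol and open points for those with several. The dashed line is the signal of 100 (log2 value 6.64), passed by 18 probe sets and by none for H3.

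The 60 probe sets below the limit had highest values between 1.85 and 5.46. In 32 of them the 6 arrays lay within 0.1 of each other on the log2 scale, and in 10 they spread over more than 0.5. The array medians over all probe sets were 2.92 to 2.98, and 34 of the 60 had their highest value under the upper of these. The 60 included all 6 probe sets of the germ line linker histones H1-6, H1-7 and H1-8, and the 4 assigned to a pseudogene or noncoding RNA (H1-9P, H2AC5P, H4C10P and H1-10-AS1). For H3, H3C8 (208496_x_at) ran from 3.27 to 3.59 over the 6 arrays. H3C7 (208506_at) was 3.86 in untransfected KHOS and between 2.78 and 2.95 on the other arrays. No probe set of H3 was thus taken as measured.

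For H4, whose copies encode the same protein, the probe set 205967_at, assigned to 14 genes on chromosomes 1, 6 and 12, had log2 signals of 13.99, 14.04 and 13.85 in KHOS, in the sequence untransfected, nonspecific siRNA, CDK11 siRNA that is kept from here on. In U-2OS it had 13.84, 13.86 and 13.69. The knockdown array was the lowest of its line in both lines, by a small margin. The probe set 214463_x_at is assigned to H4C11 alone, although its design accession is that of H4C12, and it may read other H4 copies. It had 7.74, 7.78 and 7.77 in KHOS, against 7.54, 7.55 and 7.47 in U-2OS. A further probe set for the 14 H4 genes, 208580_x_at, had 7.50, 7.37 and 7.31 in KHOS, against 7.28, 7.06 and 7.18 in U-2OS. These 3 H4 probe sets spread by less than 0.25 within a line.

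Linker histone H1 was represented by H1-10 and H1-2. H1-10 (204805_s_at), a variant made throughout the cell cycle, had 8.45, 8.69 and 8.21 in KHOS, against 9.70, 9.57 and 9.87 in U-2OS. Every U-2OS array was above every KHOS array, and the knockdown array was the lowest in KHOS and the highest in U-2OS. H1-2 (209398_at), a clustered H1 gene, had 8.96, 8.93 and 8.85 in KHOS, against 8.35, 8.43 and 8.56 in U-2OS, so that here KHOS was above U-2OS on every array.

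Among the H2A genes, H2AC18 and H2AC19, twin copies in the smaller cluster on chromosome 1, are read together. Their probe set 214290_s_at had 9.99, 9.97 and 10.20 in KHOS, against 8.60, 8.47 and 8.61 in U-2OS. Their probe set 218280_x_at had 9.15, 9.30 and 9.40 in KHOS, against 7.46, 7.14 and 7.53 in U-2OS. Both showed the KHOS arrays above the U-2OS arrays, whereas their remaining probe set, 218279_s_at, lay between 3.06 and 3.11 on all arrays of both lines. H2AC25 (221582_at), the H2A gene of a further small cluster on chromosome 1, had 7.69, 7.53 and 7.64 in KHOS, against 2.70, 2.73 and 2.73 in U-2OS. In U-2OS it thus sat under the median of the array. The other H2AC25 probe set, 231681_x_at, was flat in both lines, between 2.09 and 2.12, so that the difference rests on 1 of 2 probe sets.

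The H2A probe sets that differed most between transfections were those of H2AC6 and of the H2A copies in the chromosome 6 cluster. H2AC6 (215071_s_at), which shares its promoter with H2BC4, had 7.14, 7.52 and 7.91 in KHOS, against 7.70, 5.92 and 6.98 in U-2OS. The U-2OS nonspecific siRNA array was the lowest of the 6. The probe set 207156_at, assigned to H2AC11, H2AC12, H2AC13, H2AC15, H2AC16 and H2AC17, had 5.36, 5.32 and 5.93 in KHOS, against 6.69, 5.97 and 7.46 in U-2OS. It was above the limit on 2 of 6 arrays, and the knockdown array was the highest of its line in both. The other probe set of these 6 genes, 214542_x_at, lay between 2.59 and 3.29 on all arrays.

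For H2B, H2BC12 (209806_at), a gene with 2 RefSeq transcripts, had 10.84, 10.50 and 11.04 in KHOS, against 11.21, 11.43 and 11.44 in U-2OS. H2BC12L (208579_x_at), a related copy on chromosome 21, had 8.66, 8.37 and 8.84 in KHOS, against 9.03, 9.24 and 9.14 in U-2OS. Both had their lowest KHOS value on the nonspecific siRNA array. H2BC9 (208546_x_at) had 7.36, 7.54 and 8.17 in KHOS, against 6.88, 7.03 and 7.18 in U-2OS, with the knockdown array highest in each line. H2BC5 (209911_x_at) had 7.57, 7.52 and 7.85 in KHOS, against 8.52, 8.28 and 8.02 in U-2OS, where the knockdown array was the lowest. The other 4 H2B probe sets above the limit, for H2BC5, H2BC6 and, in 2 probe sets, the same 5 copies, lay between 6.60 and 7.78. Among them, the second H2BC5 probe set, 222067_x_at, had 7.20, 7.34 and 7.32 in U-2OS, where the untransfected array was the lowest.

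**Figure D2:**
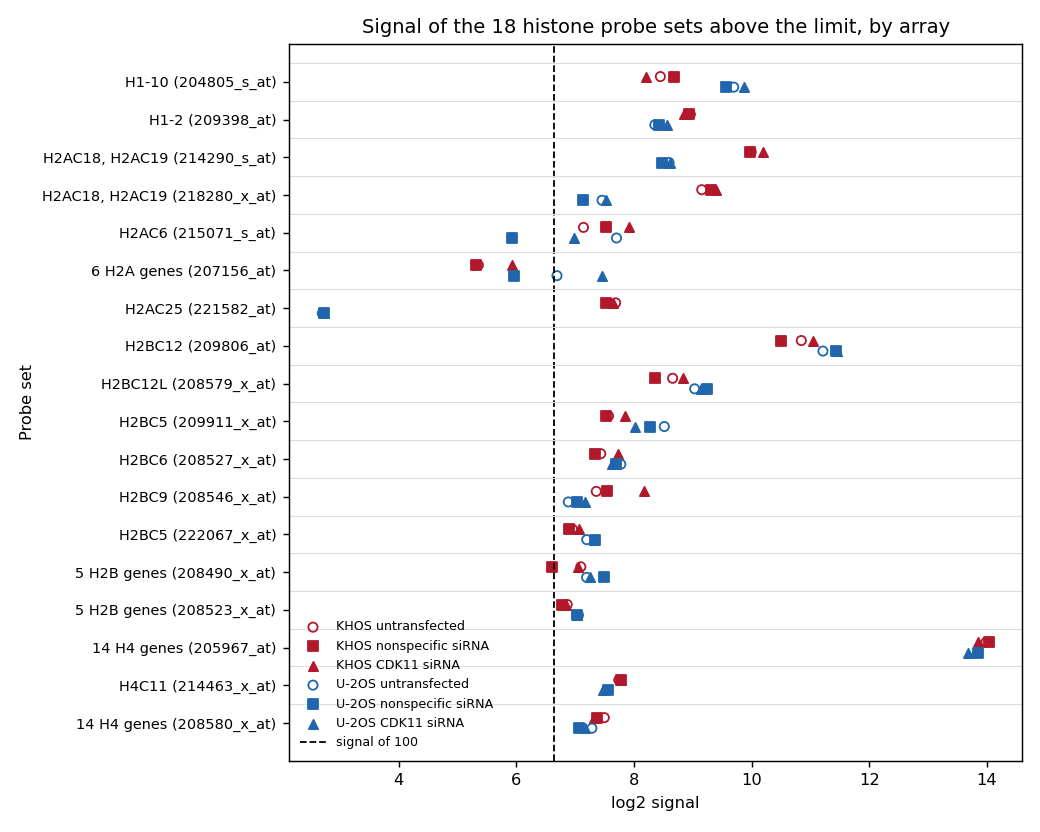
Log2 signal on each of the 6 arrays for the 18 histone probe sets above the limit (dashed line, 6.64), with red for KHOS, blue for U-2OS, and circles, squares and triangles for untransfected cells, nonspecific siRNA and CDK11 siRNA. The lines are farthest apart for H2AC25, and the transfections are farthest apart for H2AC6 and for the 6 H2A genes of 207156_at in U-2OS.

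The comparison of CDK11 siRNA with nonspecific siRNA describes transcripts after knockdown of the kinase. The methods give 1 CDK11 siRNA sequence, so other effects of that sequence cannot be told from loss of the kinase. With 1 array per condition no test is possible within a line, and a difference was called when it lay more than 3 SD from the mean difference of the 16397 probe sets above the limit. This z-score follows the study, which also left out probe sets by their detection calls, not used here. The study then kept the hits shared by both lines and averaged probe sets of the same gene, which was not done here. In KHOS, 0 of the 18 histone probe sets were called against 1.38% of all probe sets. In U-2OS, 1 of 18 was called against 1.87%. It was 207156_at of the 6 H2A genes, with a log2 difference of 1.497 in U-2OS and 0.61 in KHOS. Both KHOS arrays and the U-2OS nonspecific siRNA array lay below the limit, so that the size of these differences is uncertain. The U-2OS knockdown array exceeded the limit by 0.82, a value of 1 array without an estimate of error. The other probe set of the same 6 genes, 214542_x_at, was below the limit and differed by -0.0115 in U-2OS and -0.36 in KHOS. The call thus rests on 207156_at alone. Against the untransfected array the difference of 207156_at in U-2OS was 0.77, within 3 SD. With H2AC6, at 1.06 in U-2OS and 0.39 in KHOS, it was highest over both lines, but the U-2OS difference of H2AC6 turned to -0.72 against the untransfected array.

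By class, all 8 H2B probe sets were higher with CDK11 siRNA than with nonspecific siRNA in KHOS, by 0.070 to 0.63 with a median of 0.41, whereas in U-2OS 2 were higher and 6 lower, between -0.26 and 0.14. Since 7 of the 8 are _x_at probe sets of one gene family, they do not count as 8 independent measurements, and no difference between the lines was tested. In KHOS, 7 of the 8 had also been lower with nonspecific siRNA than untransfected, and 6 of 8 were above the untransfected array after knockdown, with a median of 0.19. All 5 H2A probe sets were higher in KHOS, by 0.091 to 0.61, and 4 of 5 in U-2OS. All 3 H4 probe sets were lower in KHOS, between -0.18 and -0.0072, and 2 of 3 in U-2OS. Both H1 probe sets were lower in KHOS and higher in U-2OS, with H1-10 at -0.48 and 0.30.

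Over the 18 members the median log2 difference was 0.20 in KHOS, where 13 were higher, and 0.0041 in U-2OS, where 9 were higher. Over all probe sets above the limit it was 0.0096 and 0.014, with 51.9% and 52.7% higher. The SD of all differences was 0.449 in KHOS and 0.365 in U-2OS.

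**Figure D3:**
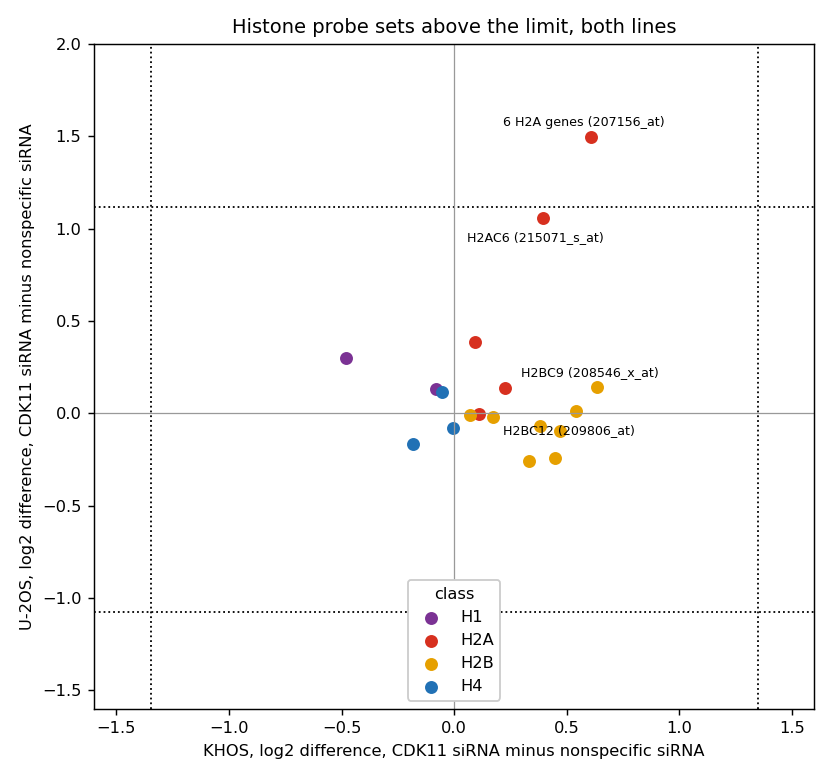
Log2 difference, CDK11 siRNA minus nonspecific siRNA, in KHOS (horizontal axis) and in U-2OS (vertical axis) for the 18 histone probe sets above the limit, coloured by class, with dotted lines at 3 SD from the mean of all probe sets above the limit. Only 207156_at, at 1.497 in U-2OS, lies beyond a dotted line, and all 8 H2B points lie to the right of 0.

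With the lines as replicates, limma found no histone probe set past an adjusted p of 0.05 between CDK11 siRNA and nonspecific siRNA, as it found 0% of the 16397 probe sets. The fit has 2 residual degrees of freedom, and its smallest adjusted p over all probe sets was 0.146. At an unadjusted p under 0.05 there were 2337 probe sets, of which 1 was a member. This was 207156_at, with a mean log2 difference of 1.05 (SE 0.243, adjusted p = 0.233). It was above the limit on 2 U-2OS arrays alone and entered the fit through them, so its p is not read as support. Next by size were H2AC6, at 0.73 (SE 0.519, adjusted p = 0.577), and H2BC9, at 0.39 (SE 0.176, adjusted p = 0.409). The lowest was that of the 14 H4 genes in 205967_at, at -0.18 (SE 0.115, adjusted p = 0.541), followed by H1-10 at -0.090 (SE 0.212, adjusted p = 0.885).

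Nonspecific siRNA against untransfected cells compares transfection of a control siRNA with no transfection. Effects of the transfection reagent and of the siRNA sequence cannot be told apart here. In KHOS 0 of 18 members were beyond 3 SD (1.51% of all probe sets) and in U-2OS 1 of 18 (1.59%). The latter was H2AC6, with a log2 difference of -1.78 in U-2OS, where the nonspecific siRNA array lay below the limit, and 0.38 in KHOS. On the same U-2OS pair of arrays all 4 osteoblast markers that passed the limit were lower, with a median of -0.80. Of these, CDH11 passed it through KHOS and lay below it here, at 4.90 and 3.96. RUNX2 went from 7.03 to 4.39, which is below the limit. SPP1, just under the limit, went the other way, from 6.01 to 6.62. Lower values on this pair were not particular to the osteoblast markers. All 8 replacement histone variants and all 17 S phase genes measured below were lower too, against 4518 of 8878 genes. The part of the osteoblast markers in the H2AC6 value was not tested. The median over the 18 members was -0.039 in KHOS, with 6 higher, and -0.0034 in U-2OS, with 9 higher, against -0.0034 and -0.018 over all probe sets. In limma 0 of 18 members and 0% of all probe sets passed, with 0 members and 1468 of all probe sets at an unadjusted p under 0.05.

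CDK11 siRNA against untransfected cells uses the same knockdown arrays as the first comparison. Beyond 3 SD there were 0 of 18 members in KHOS (1.59% of all probe sets) and 0 in U-2OS (1.62%). The median over the members came to 0.15 for KHOS and 0.042 for U-2OS, with 11 of 18 higher in each, against medians of -0.00030 and 0 over all probe sets. Here too limma passed 0 members and 0% of all probe sets, with a smallest adjusted p of 0.1004. At an unadjusted p under 0.05 there were 3162 probe sets including 2 members. These were 207156_at, at 0.67 (SE 0.243, adjusted p = 0.245), and H2BC9, at 0.55 (SE 0.176, adjusted p = 0.210). For 207156_at, which entered the fit through U-2OS arrays alone, the p is again not read as support.

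Some of the 60 probe sets below the limit moved on single KHOS arrays. They were picked after their values were seen and are given without a call. The probe set 210387_at of H2BC8 and H2BC11 had 4.03, 4.42 and 5.46 in KHOS, against 3.03, 3.35 and 3.16 in U-2OS. H2AC17 (214481_at) had 4.91, 3.49 and 4.56 in KHOS and lay between 3.37 and 3.43 in U-2OS. H2AC8 (214469_at) had 2.90, 3.19 and 4.17 in KHOS, against 2.68, 2.27 and 2.88 in U-2OS. In all 3 the KHOS knockdown array was above that of nonspecific siRNA, by 0.98 to 1.07, at signals where the method allows little precision. The other probe set for H2BC8 and H2BC11, 215779_s_at, was 3.28 on the first and 3.54 on the knockdown array of this pair, and that of H2BC11 alone, 214502_at, was 2.79 and 2.68.

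Between the lines, more members passed. With the 3 transfections as replicates, limma passed 11 of the 18 histone probe sets (61.1%) between KHOS and U-2OS at an adjusted p of 0.05, against 72.1% of all probe sets, a share no higher than that background. The 11 include H2AC25 and 207156_at, whose mean over the 6 arrays was below the limit and which passed it through the arrays of 1 line alone. Of the 16 other members 9 passed (56.25%), 4 higher in KHOS and 5 lower, against 69% of all probe sets with a mean above the limit, a count chosen after the data were seen. H2AC25 and 207156_at are therefore described without a test. H2AC25 had means of 7.62 ± 0.081 in KHOS and 2.72 ± 0.017 in U-2OS (SD over 3 arrays). As U-2OS was near the floor of the scale, the size of the difference is uncertain. The KHOS mean exceeded the limit by 0.98. The 6 H2A genes of 207156_at had means of 5.54 ± 0.342 in KHOS, with all 3 arrays below the limit, and 6.71 ± 0.749 in U-2OS. Their other probe set, 214542_x_at, was below the limit and went the other way, with a KHOS minus U-2OS difference of 0.52.

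H2AC18 and H2AC19 were higher in KHOS in both probe sets above the limit, by 1.91 in 218280_x_at (SE 0.129, adjusted p = 0.000271) and by 1.49 in 214290_s_at (SE 0.10, adjusted p = 0.000264). H2BC9 was higher by 0.66 (SE 0.144, adjusted p = 0.0116) and H1-2 by 0.46 (SE 0.111, adjusted p = 0.0158). The call for H1-2 was lost when the kept values were quantile normalized again, at 0.31, a setting that lowered the median difference of all probe sets by 0.117. Higher in U-2OS was H1-10, with a KHOS minus U-2OS difference of -1.26 (SE 0.173, adjusted p = 0.00236). H2BC5 (209911_x_at) differed by -0.62 (SE 0.179, adjusted p = 0.0284), H2BC12 by -0.57 (SE 0.151, adjusted p = 0.0220) and H2BC12L by -0.52 (SE 0.149, adjusted p = 0.0287). Without the nonspecific siRNA arrays 6 of the 11 calls were kept, and those of H1-2, H2BC12, H2BC12L and both H2BC5 probe sets were lost. The 3 H4 probe sets, at 0.16 to 0.25, and H2AC6, at 0.65 (SE 0.424, adjusted p = 0.220), did not pass. Without the untransfected arrays H2AC6 passed, at 1.26, and without the nonspecific siRNA arrays it was at 0.18.

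**Figure D4:**
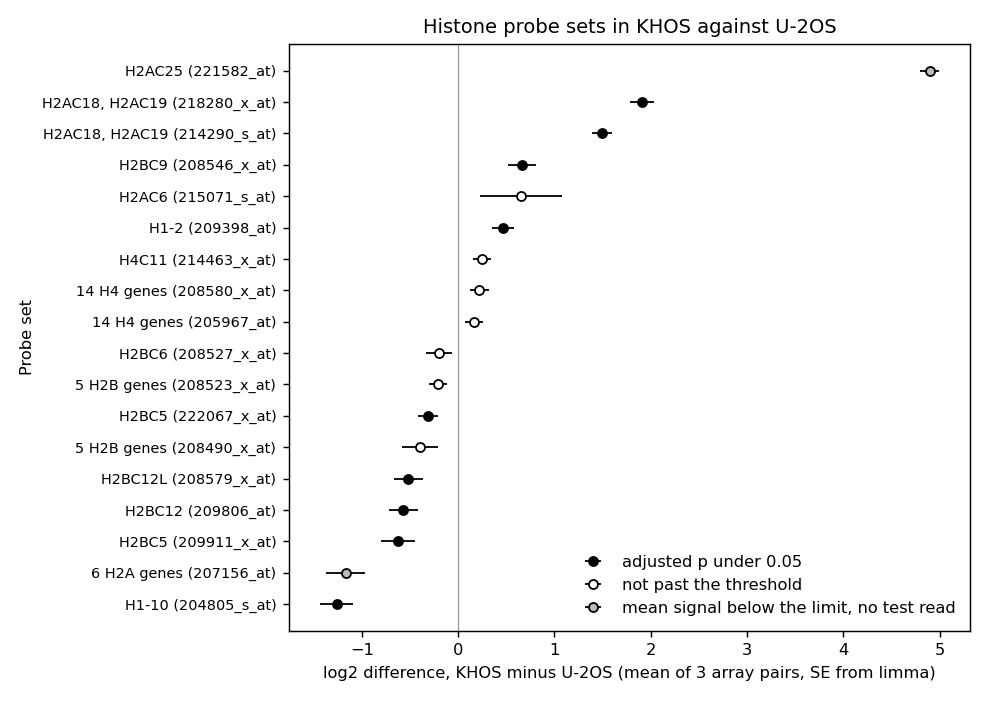
Log2 difference, KHOS minus U-2OS, of the 18 histone probe sets above the limit, as the mean of the 3 pairs of arrays with its standard error from limma, black points for an adjusted p under 0.05, and grey points for the 2 probe sets with a mean below the limit. Black points lie on both sides of 0, with 218280_x_at at 1.91 and H1-10 at -1.26.

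The genes that make and handle histones were described as gene lists, each gene through its brightest probe set with 1 symbol. Of 28 genes for the transcription and 3′ end processing of histone mRNA, 23 had a probe set above the limit. Their median log2 difference with CDK11 siRNA against nonspecific siRNA was -0.10 in KHOS and -0.075 in U-2OS, with 15 and 12 of 23 lower, and 0 passed limma, where 4 had an unadjusted p under 0.05. Over 8878 genes taken in the same way 0 passed and 1146 had such a p. SLBP, which binds the stem-loop, had 12.47, 12.39 and 11.99 in KHOS, against 12.07, 11.76 and 11.90 in U-2OS. NPAT, the coactivator of histone genes, differed by 0.16 in KHOS and -0.22 in U-2OS, and CASP8AP2 by -0.10 and -0.075. LSM10 and LSM11 of the U7 particle differed by -0.10 and 0.18 in KHOS and by -0.26 and 0.025 in U-2OS. None of these was beyond 3 SD, and those with the lowest mean were the S phase entry genes CCNE1 and E2F1. CCNE1, the cyclin that drives NPAT through CDK2, was beyond 3 SD in KHOS at -1.45 and within it in U-2OS at -0.99. CCNE2, also in the list, was at -0.38 and 0.71. E2F1 was at -0.995 and -0.51. At the other end were CSTF2T, a factor of 3′ end cleavage, at 0.76 and 0.26, and EXOSC10 of the RNA exosome, at 0.24 and 0.41. With untransfected cells as the control CCNE1 was at -0.93 in KHOS and -0.31 in U-2OS, within 3 SD in both, and E2F1 at -0.76 and -0.54. In that comparison CSTF2T was at 0.10 and -0.33, and EXOSC10 at 0.46 and 0.36.

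Of 13 replacement histone variants, most of which are made also outside S phase and are polyadenylated, 8 were measured. Among them is H1-10, also a member above. All 8 were lower with CDK11 siRNA in KHOS, with a median of -0.27, and 3 of 8 in U-2OS (median 0.038), and 0 passed limma, where 1 had an unadjusted p under 0.05. CENPA, the H3 variant of centromeres, was at -0.49 in KHOS and -0.40 in U-2OS, and H2AZ2 at -0.55 and -0.073. The highest were MACROH2A2, at -0.22 and 0.41, and MACROH2A1, at -0.077 and 0.12. Against untransfected cells all 8 were lower in KHOS (median -0.26) and 6 of 8 in U-2OS (median -0.28), with MACROH2A2 at -0.24 there.

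Among 23 histone chaperones, which escort histones to and from DNA, 21 were measured. With CDK11 siRNA against nonspecific siRNA 17 were lower in KHOS and 13 in U-2OS, with medians of -0.29 and -0.13. ATRX, which deposits H3.3 with DAXX, was at -0.38 in KHOS and -0.79 in U-2OS, and RBBP4 at -0.75 and -0.23. ASF1A, at 0.40 and 0.19, and HIRA, at -0.40 and 0.74, were highest. Against untransfected cells HIRA was at -0.71 in U-2OS, and 18 of the 21 chaperones were lower in KHOS and 17 in U-2OS. Of 18 S phase genes 17 were measured. With CDK11 siRNA against nonspecific siRNA all 17 were lower in KHOS, with a median of -0.46, and 11 of 17 in U-2OS (median -0.014). MCM3, part of the helicase that opens DNA for replication, was beyond 3 SD in both lines, at -1.55 and -1.63, and MCM2 was at -0.70 and -0.48. POLA1 was highest, at -0.13 and 0.78, followed by CCNA2, at -0.066 and 0.24. In U-2OS all 17 were already lower with nonspecific siRNA than untransfected, with a median of -0.37. Knockdown against untransfected cells gave medians of -0.50 in KHOS, with all 17 lower, and -0.41 in U-2OS, with 15 lower. In that comparison POLA1 and CCNA2 were at -0.18 and -0.15 in U-2OS. By limma between the siRNAs 0 chaperones and 0 S phase genes passed, where 5 and 2 had an unadjusted p under 0.05. Of the 8878 genes 0 passed and 1146 had such a p. The part of the S phase genes in the histone values was not tested. Over the 8878 genes the KHOS median was 0.0024 and the U-2OS median 0.0087.

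**Figure D5:**
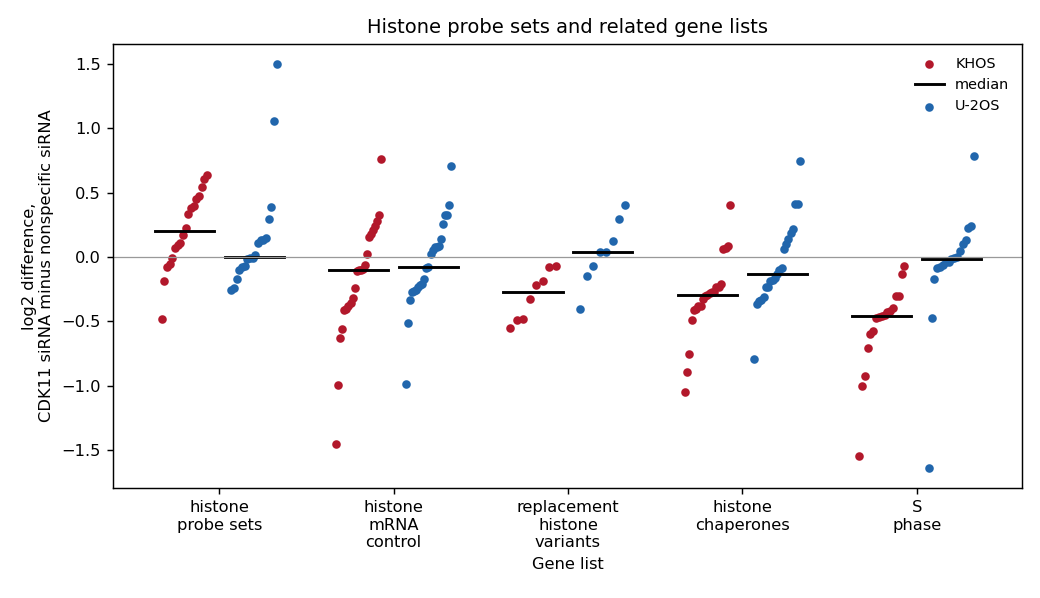
Log2 difference, CDK11 siRNA minus nonspecific siRNA, of the 18 histone probe sets above the limit and of the measured genes of 4 related lists, in KHOS (red) and U-2OS (blue), with points in ascending sequence and black bars at the medians. In KHOS the histone probe sets have a median of 0.20 and the S phase genes of -0.46, and in U-2OS both medians are near 0. Against untransfected cells, which are not drawn, the S phase median in U-2OS is -0.41.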

How the data were processed

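RNA of 3 flasks was pooled for each array. The authors deposited log2 signals made with gcrma, a method that subtracts nonspecific binding, then applies quantile normalization, then gives 1 value per probe set. Only the 6 columns of this table were used. The members and gene lists were chosen with earlier results of these data known. Probe sets were named from the platform annotation, in which 41097 had 1 symbol, 1801 several and 11777 none, and all 78 members had a gene in RefSeq (GRCh38.p14). Log2 differences within a line were scaled by the mean and SD over the 16397 probe sets above the limit. limma 3.58.1 (R 4.3.3) was fitted to these with cell line and transfection as factors and Benjamini-Hochberg adjustment, two-sided, after both steps were tested on simulated data. Replicates are the other line or the other transfections, so p-values include those differences. Named members were those beyond 3 SD in any comparison of transfections, the 5 lowest and 5 highest after knockdown and between the lines, and the 2 brightest of each class. For lists, these were SLBP, NPAT, CASP8AP2, LSM10, LSM11 and the 2 lowest and 2 highest. Depth has no counterpart on arrays, and their number limits the precision. Python 3.11.15, pandas 2.3.3, numpy 2.4.6 and matplotlib 3.10.9 were used.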

Additional observations from a re-analysis of the deposited data

Results flagged for a closer look

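H2AC6 (215071_s_at) stood out because it lay beyond 3 SD in U-2OS and had the opposite sign in KHOS. The log2 difference of nonspecific siRNA minus untransfected was -1.78 in U-2OS and 0.38 in KHOS. With 1 array per condition in each line, no test of KHOS against U-2OS was possible, and this difference was not tested. In U-2OS the knockdown array, at 6.98, lay between the nonspecific siRNA array, at 5.92, and the untransfected array, at 7.70.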

How the results depend on the processing

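With no signal limit, 3 histone probe sets in place of 0 were beyond 3 SD for CDK11 against nonspecific siRNA in KHOS (H2AC8, H2AC17 and that of H2BC8 and H2BC11), and 2 in place of 1 in U-2OS, and the KHOS median was 0.012 in place of 0.20. For nonspecific siRNA against untransfected it gave 2 in KHOS (H3C7 and H2AC17) in place of 0, an alternative chosen after seeing the data. In U-2OS the median and MAD, or a threshold of 2, gave 2 (H2AC6 was added), and the untransfected control or probe sets with 1 symbol alone gave 0. When each gene was taken by its brightest probe set, the KHOS median was 0.36. Between the lines, leaving out the arrays of each transfection in turn left 6 to 9 of the 11 calls, and H2AC6 was added without the untransfected arrays. Without a signal limit there were 12 calls, of which 7 were among the 11. The H4 probe sets 205967_at and 214463_x_at were among those added. With a variance prior of limma that varies with level, 10 of the 11 calls between the lines were kept. That of H2BC5 in 222067_x_at was lost and that of 205967_at was added. Against untransfected cells the mean difference of 4 members changed sign, that is for 208580_x_at (14 H4 genes), to -0.15, for H2BC5 (209911_x_at), to -0.11, for 208523_x_at (5 H2B genes), to -0.023, and for H2AC25, to -0.0095. When the variance prior of limma was let vary with level, 211 of all probe sets passed in place of 0 for CDK11 against nonspecific siRNA, 5 for nonspecific siRNA against no transfection and 574 for CDK11 siRNA against no transfection, with 0 histone probe sets in each. The causes were not tested. Transfections were compared within lines by the block for cell line, and without it 0 histone probe sets passed as well. Signals near the floor of the gcrma scale and shared probes limit what these arrays show of single copies.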
